A study of Mus musculus with 36 samples.

Results

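Gene expression in the blood of 129S1/ImJ mice was set against that of C57Bl/6J mice on Affymetrix arrays. The comparison rests on 6 of the 36 arrays of the study, 3 from 129S1/ImJ and 3 from C57Bl/6J mice, all hybridized with blood RNA from which alpha and beta globin transcripts had been removed with the GLOBINclear kit. A second array of each of these 6 mice, hybridized with whole RNA of the same extract, served as a check of direction. Members were chosen by the strain and preparation in the sample titles, with no use of measured values. All mice were inbred males aged 8 weeks with no genetic alteration or drug named in the labels. Blood was taken under isoflurane by cardiac puncture. The labels' protocol spells the first strain 129S1/SvImJ, the strain label 129S1/ImJ. The other 12 mice belonged to A/J, C3H/HeJ, DBA/2J and FVB/NJ, 3 of each, and enter here as an estimate of the spread between mice and as a reading of where other strains lie.

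Strains of the 129 family gave rise to many of the embryonic stem cells used for gene targeting, and the resulting knockout lines are usually crossed to C57BL/6, so that the chromosome segment around a targeted gene often stays 129. Both strains carry the b haplotype of H2, the mouse major histocompatibility complex. Blood RNA comes mainly from reticulocytes, the young red cells that still hold mRNA, together with leukocytes and platelets. In such a mixture fewer cells of a type and less RNA per cell cannot be told apart, which applies to each cell marker below.

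Values are the deposited log2 levels of probe sets, the groups of short probes that measure a transcript. A level near log2 2 to 3 is at the bottom of the scale, where the values carry background, and no detection calls were used. A difference is the mean of the 129S1/ImJ arrays minus the mean of the C57Bl/6J arrays. Tests used limma, a linear model with moderated variances, with p-values adjusted by the Benjamini-Hochberg method over 22518 probe sets and 0.05 as the threshold for a call. A gene is represented by its brightest probe set. The p-values rest on the spread between mice within strains, estimated from all 6 strains with 3 mice each.

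A pair of arrays stood apart from their groups. C57Bl/6J array 1 had 5278 probe sets at log2 5 or above, while the other 5 GLOBINclear arrays of both strains had 4205 to 4771. Its polyadenylated spike controls were also lowest, at 8.35, with 9.12 to 10.4 on the others. Its correlation with C57Bl/6J array 3 was 0.918 over the tested probe sets, and with 129S1/ImJ array 1 it was 0.957. On 129S1/ImJ array 3 the neutrophil markers averaged 9.36, against 6.25 and 6.36 on arrays 1 and 2 of that strain. The labelled tissue was borne out by its markers, since the lists of erythroid transcription and maturation and of platelet genes averaged 9.01 or more on all 6 arrays. Other red cell lists averaged less, 6.79 to 7.71 for the membrane and skeleton and 6.93 to 7.44 for heme synthesis and iron. Globins, which the kit removes, averaged 4.38 to 5.35. Values without the arrays that stood apart are given beside the main lists that they moved.

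In GLOBINclear RNA 129S1/ImJ blood differed from C57Bl/6J blood in 1176 of 22518 probe sets, or 5.22%. Of these 454 were higher (2.02%) and 722 lower (3.21%) in 129S1/ImJ. At least 2-fold differences accounted for 334 of the higher and 566 of the lower sets. Counted by gene, 673 of 11353 passed (5.93%), 272 higher (2.4%) and 401 lower (3.53%), while the median difference over all tested genes was -0.04. The count depended on single arrays. It was 2158 without C57Bl/6J array 1, 780 without C57Bl/6J array 2 and 928 without 129S1/ImJ array 3, and 2179 without both arrays that stood apart. When only the 6 arrays of the 2 strains entered the fit, so that the spread was estimated from them alone, 139 probe sets passed. Calls were more frequent among bright probe sets, with 1.16% called at mean levels up to log2 3.5, 12.1% between 5 and 7, and 21.5% above 9. In the main fit 3444 of the 22518 probe sets had an unadjusted limma p under 0.05. Counts of list members at that level are to be read beside this share.

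Further probe sets of the called genes were rarely called in the opposite direction. Of the 272 higher genes, 128 had a further tested probe set. In 54 of these a further set was also called higher, and in 1 a further set was called lower. Of the 401 lower genes, 209 had a further set. In 103 of these one was called lower, and in 0 was any called higher. All further sets had a positive difference in 93 of the 128 higher genes, and a negative one in 179 of the 209 lower genes.

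The whole RNA arrays of the same mice gave fewer calls with the same direction. There 570 probe sets passed (2.53%), 152 higher (0.675%) and 418 lower (1.86%) in 129S1/ImJ. In whole RNA 2320 of the 22518 sets had an unadjusted limma p under 0.05, the share beside which list counts at that level stand. Of the 454 sets called higher in GLOBINclear RNA, 435 also had a positive difference in whole RNA, as had 684 of the 722 lower sets a negative one, and over all tested sets the signs matched in 57.7%. Calls shared in both preparations numbered 436, which is 37.1% of the GLOBINclear calls and 76.5% of the whole RNA calls. No set was called in opposite directions, a count of 0. These are second arrays of the same animals and not further mice.

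**Figure D1:**
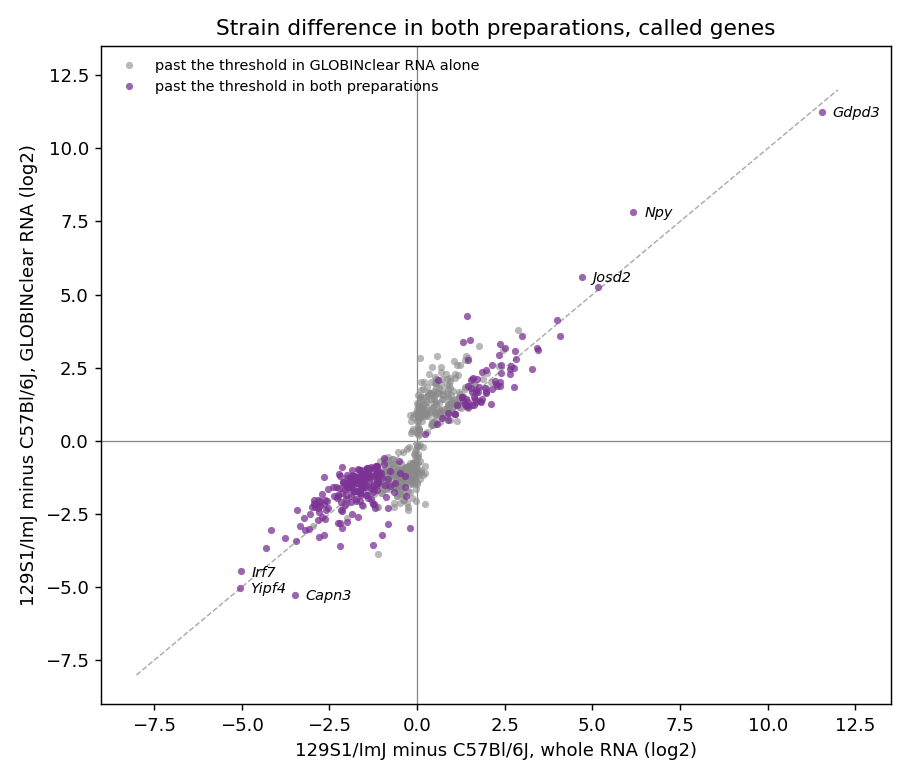
Difference between 129S1/ImJ and C57Bl/6J blood (log2) in GLOBINclear RNA (vertical axis) against whole RNA (horizontal axis) for the 673 genes called in GLOBINclear RNA, with equality as a dashed line. The 256 purple genes passed in both preparations, and 30 genes lie on opposite sides of 0.

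Among the genes higher in 129S1/ImJ the difference of Gdpd3 stood first, a gene of the glycerophosphodiester phosphodiesterase family of lipid enzymes. Its level was 13.45, 13.34 and 13.40 on the 129S1/ImJ arrays and 2.13, 2.15 and 2.14 on the C57Bl/6J arrays. The 129S1/ImJ arrays were thus near the top of the scale and the C57Bl/6J arrays at its bottom. The difference was 11.26 ± 0.14 on the log2 scale (SE, limma adjusted p = 1.4e-16), or 2450.6-fold on the deposited values. Npy, which encodes neuropeptide Y, read 10.41, 10.08 and 10.73 in 129S1/ImJ against 2.46, 2.62 and 2.67 in C57Bl/6J. That difference was 7.83 ± 0.17 (adjusted p = 1.3e-13). Both genes differed by far more than their spread within strains, and in whole RNA their differences were 11.54 and 6.17.

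Further genes with the largest positive differences had varied roles. Josd2, a deubiquitinating enzyme of the Josephin family, was at 9.87, 10.69 and 8.11 in 129S1/ImJ and at 3.40, 3.97 and 4.49 in C57Bl/6J (difference 5.60 ± 0.51, limma adjusted p = 8.4e-06). The transcript 6030458C11Rik reached 8.00, 8.49 and 9.03 in 129S1/ImJ, against 3.39, 3.03 and 3.28 in C57Bl/6J (5.28 ± 0.29, adjusted p = 3.1e-08), although a further set of it stayed near the floor in both strains (difference -0.07). Sult4a1, a sulfotransferase relative best known from brain, had 8.15, 7.77 and 5.79 in 129S1/ImJ, while the C57Bl/6J arrays lay between 2.93 and 3.01. Its difference of 4.26 ± 0.40 (adjusted p = 9.9e-06) was accompanied by 3.54 in a further set. Glrx, the thiol reductant glutaredoxin, read 8.30, 10.01 and 7.82 in 129S1/ImJ and 4.75, 4.44 and 4.59 in C57Bl/6J (4.12 ± 0.53, adjusted p = 0.00021). A second Glrx set differed by 4.35.

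Smaller positive differences were those of Pcp4l1 (3.60), Lgmn (3.58), Fnip2 (3.45), Laptm4b (3.38) and Vrk2 (3.31). Lgmn, the lysosomal protease legumain, had 8.44, 9.27 and 8.89 in 129S1/ImJ and 4.96, 5.13 and 5.77 in C57Bl/6J. Laptm4b, a lysosomal membrane protein, read 6.52, 7.06 and 8.61 in 129S1/ImJ and between 3.97 and 4.10 in C57Bl/6J, and its further sets differed by 2.31 and 3.19. Ifitm1, an interferon-induced membrane protein that restricts virus entry, had a difference of 3.78 ± 0.92 (limma adjusted p = 0.025). It was uneven within 129S1/ImJ, with 6.31, 6.90 and 11.16, while C57Bl/6J had 4.33, 3.93 and 4.77. In whole RNA Ifitm1 was not called (2.88, adjusted p = 0.27), and the part of the neutrophil markers that were high on the same array was not tested.

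Capn3 and Yipf4 led the genes lower in 129S1/ImJ. Capn3, a calpain protease best known from muscle, read 3.01, 3.20 and 3.53 in 129S1/ImJ and 7.95, 8.77 and 8.81 in C57Bl/6J, a difference of -5.26 ± 0.36 (limma adjusted p = 4.2e-07). A further Capn3 set differed by -3.77. Yipf4, a membrane protein of the Golgi, was at 5.67, 6.67 and 5.53 in 129S1/ImJ, against 10.94, 11.01 and 11.00 in C57Bl/6J. Its difference was -5.03 ± 0.32 (adjusted p = 1.4e-07), a level 32.7-fold higher in C57Bl/6J, and -5.06 in whole RNA. The C57Bl/6J mice spread by an SD of 0.04 (n = 3) and the 129S1/ImJ mice by 0.62 (n = 3).

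Others on the lower side belonged to red cells, nucleotide metabolism and trafficking. Tspo2, an erythroid relative of the translocator protein, had 7.57, 8.60 and 6.17 in 129S1/ImJ and 11.07, 10.96 and 11.25 in C57Bl/6J (-3.65 ± 0.46, limma adjusted p = 0.00017). Dut, the enzyme that removes dUTP, read 3.67, 3.41 and 2.84 in 129S1/ImJ and 6.60, 7.05 and 7.04 in C57Bl/6J (-3.59 ± 0.22, adjusted p = 9.7e-08). For Ubap1, a subunit of the ESCRT-I sorting complex, the levels were 6.12, 5.94 and 6.19 in 129S1/ImJ and 8.72, 9.69 and 9.81 in C57Bl/6J (-3.32 ± 0.28, adjusted p = 4.5e-06), with -3.38 in a further set. No array of 1 strain reached a level of the other for these 3 genes, which their choice required. Dusp23, Cd93 and Tpm2 differed by -3.27, -3.21 and -3.20. Ift140, a subunit of the intraflagellar transport machinery, was uneven within 129S1/ImJ, with 7.08, 7.12 and 3.16, while C57Bl/6J had 8.82, 9.29 and 9.52 (-3.42 ± 0.74, adjusted p = 0.012).

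With the spread taken from the 6 arrays alone, 16 of these 24 genes of largest difference still passed. The other 8 were Ifitm1, Fnip2, Laptm4b, Oas3, Tspo2, Ift140, Cd93 and Tpm2.

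**Figure D2:**
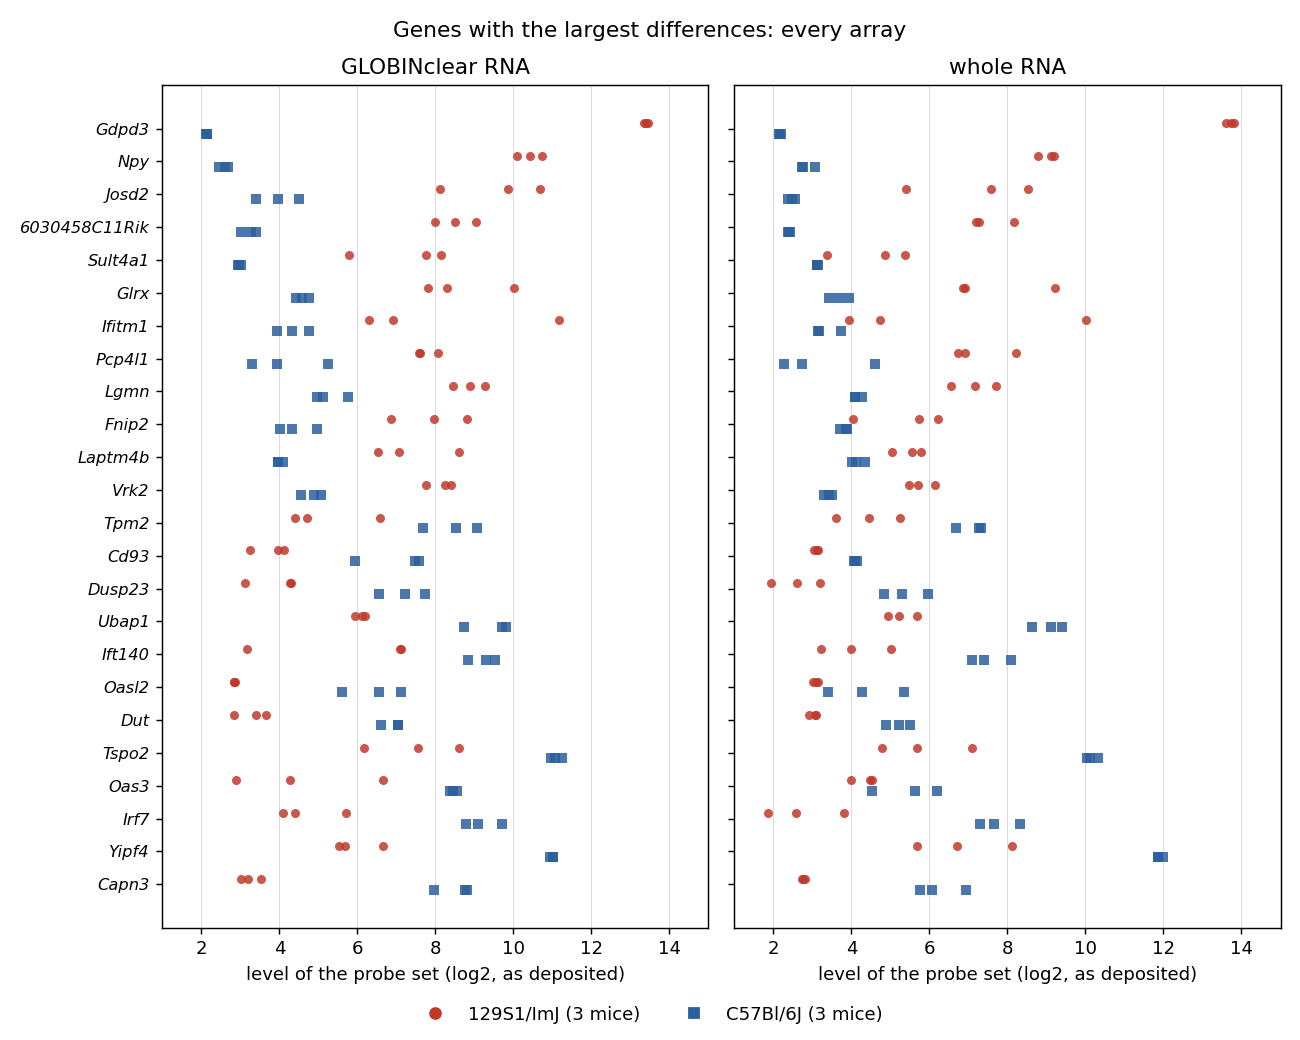
Level (log2) of the 24 genes with the largest differences on each of the 3 129S1/ImJ arrays (red circles) and 3 C57Bl/6J arrays (blue squares), GLOBINclear RNA on the left and whole RNA on the right. In GLOBINclear RNA the strains do not overlap, which the choice of the genes required, and array 3 of 129S1/ImJ holds the Ifitm1 value of 11.16.

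The means of the other 4 strains place each difference between 129S1/ImJ and C57Bl/6J. Of the 204 genes called at least 2-fold higher in 129S1/ImJ, all 4 other strains lay on the C57Bl/6J side of the midpoint in 58, and all 4 lay on the 129S1/ImJ side in 33. Of the 317 called at least 2-fold lower, 40 had all 4 on the C57Bl/6J side and 57 had all 4 on the 129S1/ImJ side. The remaining genes were split among strains. These counts describe strain means and were not tested.

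Npy, 6030458C11Rik and Laptm4b were high in 129S1/ImJ among these strains, with means of 10.41, 8.51 and 7.40, while each other strain lay between 2.55 and 4.18 for all 3. The mirror case was Glrx, at 8.71 in 129S1/ImJ and 9.09 to 10.00 in the other 4, but 4.59 in C57Bl/6J. Pcp4l1 and Lgmn followed the same pattern, with C57Bl/6J lowest. Gdpd3 was shared with FVB/NJ, which averaged 12.87, while A/J, C3H/HeJ and DBA/2J had 2.11 to 2.16. DBA/2J shared the high level of Sult4a1, at 7.50. On the lower side Yipf4 was low in 129S1/ImJ (5.96), with 9.79 to 10.57 in the other 4 strains and 10.99 in C57Bl/6J. By contrast Ubap1 and Ift140 were high in C57Bl/6J, at 9.41 and 9.21, with the other 4 strains at 6.03 to 6.82 for Ubap1 and 3.94 to 4.42 for Ift140. For Irf7 FVB/NJ had the lowest mean, 4.19, close to 4.73 in 129S1/ImJ, and the others lay between 6.87 and 9.19.

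**Figure D3:**
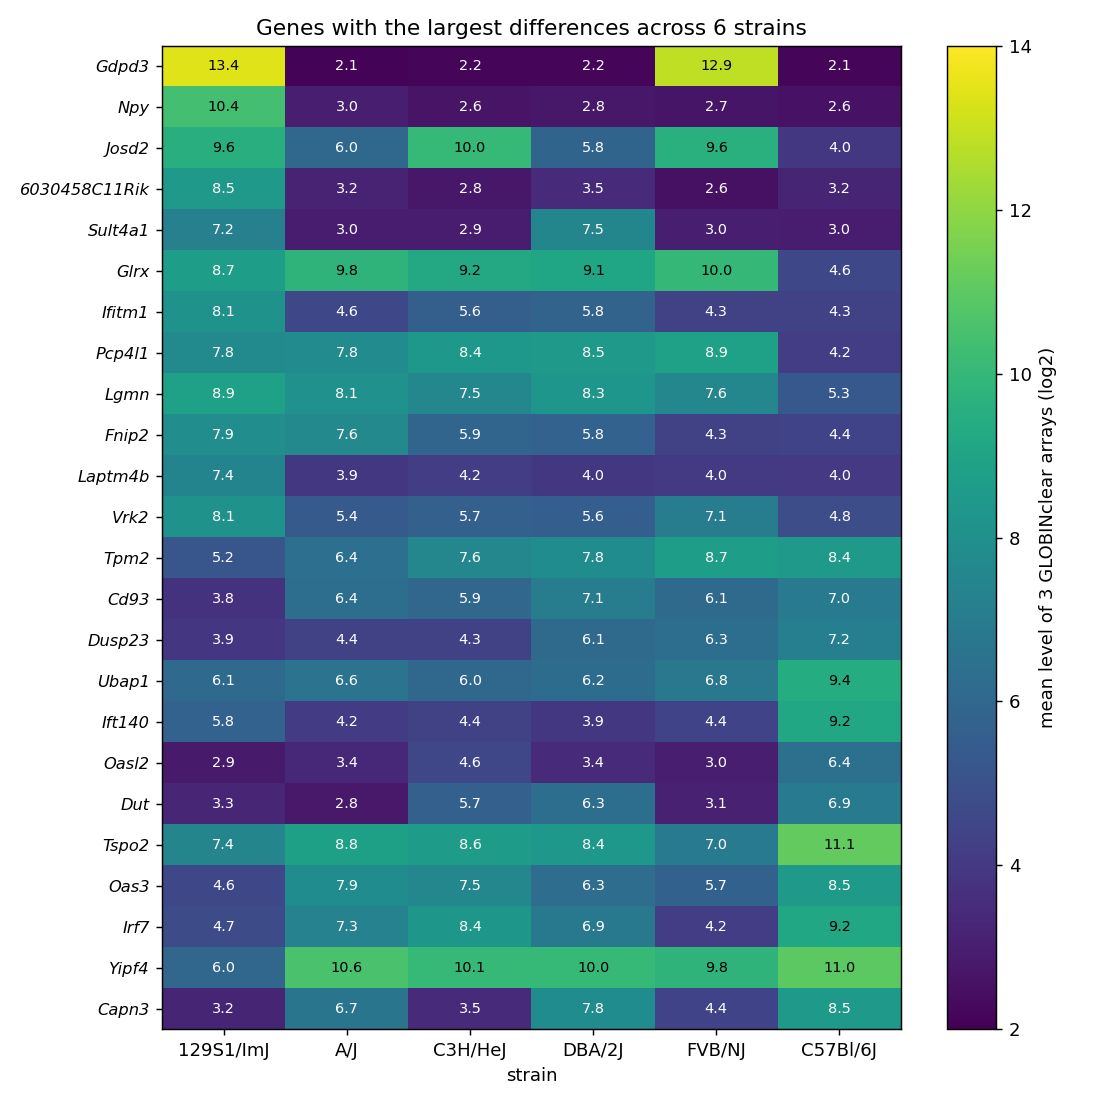
Mean level (log2, 3 GLOBINclear arrays each) of the 24 genes with the largest differences in 6 strains, 129S1/ImJ in the left column and C57Bl/6J in the right. Npy is high in 129S1/ImJ at 10.4, Gdpd3 also in FVB/NJ at 12.9, and Glrx is low in C57Bl/6J at 4.6.

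A list of 58 genes was drawn up for alleles, copy number or expression differences among inbred strains. Of these 38 were tested, and 5 were higher and 5 lower in 129S1/ImJ, while 2.4% of all tested genes were higher and 3.53% lower. The median of the 38 was -0.03, and with the 6 arrays alone 2 were higher and 2 lower. This list was compiled with earlier results of these data in view. Its calls include Gdpd3, Npy, Yipf4, Ift140 and Serinc3, genes with large differences in these same data. Its counts are therefore no independent result beside the share of all genes. Serinc3 is a membrane protein that blocks retrovirus infectivity. Serinc3 read 8.73, 9.66 and 8.87 in 129S1/ImJ and 12.08, 12.01 and 12.28 in C57Bl/6J (-3.04 ± 0.23, limma adjusted p = 1.6e-06), and its 5 further sets were also called lower, with differences between -6.19 and -1.54. The size of the difference thus varied widely between probe sets of this 1 gene. The other 4 strains averaged 11.99 to 12.40. Apobec3, a cytidine deaminase that restricts retroviruses, had 3.14, 2.901 and 2.88 in 129S1/ImJ and 4.87, 4.57 and 3.77 in C57Bl/6J, while the other 4 strains averaged 2.79 to 2.87 (-1.43 ± 0.18, adjusted p = 0.0002). Alad, a heme enzyme whose gene copies vary among strains, was at 5.78, 7.22 and 6.25 in 129S1/ImJ and 4.62, 4.67 and 5.04 in C57Bl/6J (1.64 ± 0.36, adjusted p = 0.014). All 4 other strains had more, 7.04 to 8.15. Without array 2 of either strain Alad lost its call.

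Nnt, a mitochondrial transhydrogenase whose gene carries a deletion in C57BL/6J mice, was measured at 4.51, 3.82 and 4.18 in 129S1/ImJ and 3.78, 3.82 and 3.79 in C57Bl/6J. It did not pass (0.38 ± 0.26, limma adjusted p = 0.61), and FVB/NJ had the highest mean, 4.98. The Ifi200 DNA sensors and inflammasome genes, several of which have strain alleles, gave 0 limma calls among 12 tested members. Over all tested genes 2.4% were called higher and 3.53% lower. An unadjusted p under 0.05 was found for 1 member and for 3444 of the 22518 tested probe sets. The differences of the members ran from -0.28 to 0.85.

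The classical class I genes H2-K1 and H2-D1 were not called between these strains. The part of the shared H2 haplotype in this was not tested. H2-K1, the class I molecule K, read 11.04, 10.95 and 11.13 in 129S1/ImJ and 11.21, 11.20 and 11.05 in C57Bl/6J, a difference of -0.11 ± 0.35 (limma adjusted p = 0.93). For H2-D1 the difference was 0.02 ± 0.32 (adjusted p = 0.99). C3H/HeJ had lower means for both probe sets, 6.90 and 7.68. The class II gene H2-Ea lay near the floor in both strains, averaging 3.23 in 129S1/ImJ and 3.27 in C57Bl/6J, and reached 6.41 in DBA/2J. Of 10 class II genes 0 were called by limma, while 2.4% of all tested genes were higher and 3.53% lower. An unadjusted p under 0.05 was found for 1 of the 10 and for 3444 of the 22518 tested probe sets. The median of the class II genes was -0.33. That median rested on single arrays, with 0.12 without C57Bl/6J array 1, -0.97 without C57Bl/6J array 3 and 0.46 without both arrays that stood apart. The mean level of these genes per array overlapped, at 6.32, 5.71 and 5.14 in 129S1/ImJ and 6.97, 6.21 and 5.18 in C57Bl/6J.

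Of 16 class I and peptide loading genes, 1 was higher and 1 lower (2.4% and 3.53% of all tested genes). H2-Q10, a secreted class I molecule, had 4.06, 4.48 and 5.77 in 129S1/ImJ and 2.89, 2.78 and 3.31 in C57Bl/6J (1.78 ± 0.39, limma adjusted p = 0.012). B2m, the light chain of class I, was at 11.22, 11.37 and 10.86 in 129S1/ImJ and 12.29, 12.06 and 12.49 in C57Bl/6J (-1.12 ± 0.29, adjusted p = 0.033). A further B2m set differed by -1.27, but the call of the brightest set was lost under several alternatives, among them the absence of any array except 129S1/ImJ array 2.

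Interferon-stimulated genes were lower in 129S1/ImJ in 9 cases and higher in 1, out of 33 tested. Across all tested genes 3.53% were lower and 2.4% higher. The list was compiled with earlier results of these data in view. The list's median was -0.19, against -0.04 over all tested genes. In whole RNA 4 of the 33 were lower (1.99% of all genes) and 0 higher (0.81% of all genes, limma), with 11 of the 33 at an unadjusted p under 0.05. The list averaged 5.24, 5.58 and 5.03 on the 129S1/ImJ arrays and 6.27, 5.77 and 5.85 on the C57Bl/6J arrays, without overlap. Without both arrays that stood apart 7 were lower and 3 higher, and with the 6 arrays alone 2 were lower. Over all tested probe sets 1303 were lower and 876 higher without both arrays, and 722 and 454 with all arrays.

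Irf7, the transcription factor that drives type I interferon production, had the largest difference of the list. It read 4.39, 5.70 and 4.10 in 129S1/ImJ and 9.70, 8.79 and 9.08 in C57Bl/6J, a difference of -4.46 ± 0.44 (limma adjusted p = 1.6e-05), and in whole RNA the difference was -5.02. Oasl2, an oligoadenylate synthetase-like protein, was at the floor in 129S1/ImJ with 2.84, 2.88 and 2.84 and reached 7.13, 5.60 and 6.55 in C57Bl/6J (-3.57 ± 0.32, adjusted p = 7.3e-06). Oas3, which makes the messenger that switches on RNase L, spread widely in 129S1/ImJ at 4.28, 6.64 and 2.88 and little in C57Bl/6J at 8.46, 8.38 and 8.55 (-3.87 ± 0.82, adjusted p = 0.010). Its call was lost with array weights and without both arrays that stood apart. Xaf1, a pro-apoptotic protein, differed by -2.64 (adjusted p = 0.00046), although a further set of it differed by 1.44 without passing (adjusted p = 0.053).

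Ifit1, which binds viral RNA, read 4.74, 5.77 and 2.92 in 129S1/ImJ and 7.53, 6.95 and 7.29 in C57Bl/6J (-2.78 ± 0.52, limma adjusted p = 0.0044). Ifitm3, which blocks virus entry, had 9.14, 9.66 and 9.75 in 129S1/ImJ and 11.06, 10.41 and 10.71 in C57Bl/6J (-1.21 ± 0.24, adjusted p = 0.0058). Ifi27, Usp18 and Oas1a differed by -2.23, -1.70 and -0.86. Other members showed no such shift. Rsad2 and Isg20 were near the top of the scale in both strains, with differences of -0.19 and -0.08, and Mx1 was near the floor with 0.04. Ifitm2 differed by 0.08 while its arrays ran from 6.98 to 10.66 in 129S1/ImJ. A probe set shared by Isg15 and a predicted gene averaged 7.72 in 129S1/ImJ and 10.93 in C57Bl/6J (-3.21, adjusted p = 0.013), and is given by its own name because its 2 symbols cannot be separated.

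Interferon-responsive promoters often hold repeats of GAAA, bound by interferon regulatory factors and the ISGF complex. The motif GAAANNGAAA was searched on both strands of RefSeq promoter windows of 300 bases (250 before and 50 after the start, build GRCm38.p6, a C57BL/6J sequence). It was found in 1131 of 32851 windows, or 3.44%. Of the 10 called genes 8 had a window and 4 of these held a match, Oas3, Ifit1, Ifitm3 and Oas1a, whereas Irf7, Oasl2, Xaf1 and Ifitm1 held none. Of the 23 members that were not called, 18 had a window and 13 of these held a match. The match therefore did not set the called genes apart from the rest of the list. The 4 windows are printed 5′ to 3′ on the gene's strand because these genes were lower together in 129S1/ImJ, with matches to the motif on either strand in capitals. A match describes letters of the reference strain, and 129S1/ImJ promoter sequence was not used here.

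Oas3, chr5:120777610-120777909, minus strand: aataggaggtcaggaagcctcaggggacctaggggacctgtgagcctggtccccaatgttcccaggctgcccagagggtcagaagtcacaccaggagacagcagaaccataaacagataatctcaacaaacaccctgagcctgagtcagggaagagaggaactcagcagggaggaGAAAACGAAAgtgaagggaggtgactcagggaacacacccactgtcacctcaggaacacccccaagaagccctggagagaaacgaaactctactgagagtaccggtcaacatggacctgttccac
Ifit1, chr19:34640639-34640938, plus strand: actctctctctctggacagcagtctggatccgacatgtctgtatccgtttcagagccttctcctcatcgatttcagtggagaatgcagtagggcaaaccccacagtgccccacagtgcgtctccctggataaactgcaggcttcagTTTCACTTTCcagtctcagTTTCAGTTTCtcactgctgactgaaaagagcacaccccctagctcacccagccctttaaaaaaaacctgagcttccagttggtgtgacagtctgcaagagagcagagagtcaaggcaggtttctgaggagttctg
Ifitm3, chr7:141010695-141010994, minus strand: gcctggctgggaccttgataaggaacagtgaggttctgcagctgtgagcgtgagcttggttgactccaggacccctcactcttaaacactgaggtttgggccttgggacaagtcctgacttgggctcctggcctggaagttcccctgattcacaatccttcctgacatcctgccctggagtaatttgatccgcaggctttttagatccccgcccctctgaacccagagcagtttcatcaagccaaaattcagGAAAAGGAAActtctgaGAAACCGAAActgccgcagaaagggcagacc
Oas1a, chr5:120907476-120907775, minus strand: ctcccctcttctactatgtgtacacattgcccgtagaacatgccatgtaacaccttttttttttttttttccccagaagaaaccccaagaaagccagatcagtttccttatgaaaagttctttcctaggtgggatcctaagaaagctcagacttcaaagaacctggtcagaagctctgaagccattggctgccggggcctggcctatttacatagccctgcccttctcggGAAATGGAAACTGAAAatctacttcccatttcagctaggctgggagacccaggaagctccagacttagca

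Ifit1, Ifitm3 and Oas1a each hold 2 matches and Oas3 holds 1. Their differences in GLOBINclear RNA were -2.78, -1.21, -0.86 and -3.87 in that order.

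Retrovirus restriction factors and their relatives of the Trim5 and Apobec families gave 4 lower calls and 0 higher among 10 tested, all at low levels, while 3.53% of all tested genes were lower and 2.4% higher. With the 6 arrays alone 0 of the 10 passed in limma. Trim30d had 2.81, 3.14 and 3.12 in 129S1/ImJ and 4.11, 3.74 and 3.80 in C57Bl/6J (-0.86 ± 0.10, limma adjusted p = 5.6e-05). Trim12a and Trim5 differed by -1.08 and -0.45. The median of the list was -0.25, but 0.02 without C57Bl/6J array 1 and -0.03 without both arrays that stood apart. In whole RNA 0 of the 10 were called by limma and 1 had an unadjusted p under 0.05, with differences of -0.24 for Trim30d and -0.31 for Apobec3. With a mean level of at least log2 5 required, these 4 genes were not tested.

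Neutrophil markers were higher in 129S1/ImJ in 5 of 15 tested genes and lower in 0, against 2.4% and 3.53% of all genes, and the list's median was 2.60. Array 3 of 129S1/ImJ was highest for all 5. Csf3r, the receptor of granulocyte colony-stimulating factor, read 7.34, 7.39 and 10.29 in 129S1/ImJ and 5.40, 4.95 and 5.97 in C57Bl/6J (2.896 ± 0.67, limma adjusted p = 0.018). Fpr2, a formyl peptide receptor, had 5.14, 5.23 and 8.63 in 129S1/ImJ and 3.27, 2.96 and 3.10 in C57Bl/6J (3.23 ± 0.66, adjusted p = 0.0078). The remaining arrays of 129S1/ImJ were also above each C57Bl/6J array for both genes. Most calls were of this kind, as 1141 of all 1176 called probe sets had no overlap between strains. Mmp8, Hp and Mmp9 differed by 2.74, 3.09 and 2.11.

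The list averaged 6.25, 6.36 and 9.36 on the 129S1/ImJ arrays and 5.08, 4.89 and 5.39 on the C57Bl/6J arrays. Without array 3 of 129S1/ImJ the median was 1.32 and 4 genes passed, and without both arrays that stood apart it was 1.40, also with 4. The count was 10 without 129S1/ImJ array 1, 8 without its array 2, 2 without C57Bl/6J array 2 and 3 without C57Bl/6J array 3. It was 2 with each mouse's arrays averaged. S100a8 and S100a9, the abundant calcium-binding proteins of neutrophils, did not pass (2.21 and 2.54, limma adjusted p = 0.057 and 0.056). Slc2a3 differed by 0.03. In whole RNA 0 of the 15 passed in limma, with 7 at an unadjusted p under 0.05 and a median of 1.39, and with the 6 arrays alone 0 passed in GLOBINclear RNA.

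Monocyte markers were higher in 5 of 19 genes and lower in 0, with a median of 0.60, while 2.4% of all tested genes were higher and 3.53% lower. The count was 2 without 129S1/ImJ array 2, C57Bl/6J array 2 or C57Bl/6J array 3, and 3 without 129S1/ImJ array 3, with medians of 0.24 to 0.995 over the single arrays left out. With the 6 arrays alone 0 passed in limma, and without both arrays that stood apart 5. Fcgr4, an Fc receptor of patrolling monocytes, had 4.02, 5.58 and 4.96 in 129S1/ImJ and 3.27, 2.68 and 2.70 in C57Bl/6J (1.97 ± 0.35, limma adjusted p = 0.0032). Nr4a1, the nuclear receptor on which these cells depend, differed by 1.02 (adjusted p = 0.017), and Treml4, Clec4a3 and Ms4a6c by 0.89, 1.02 and 1.13. In whole RNA 0 of the 19 passed in limma, with 5 at an unadjusted p under 0.05. Nr4a1 lost its call without array 2 of 129S1/ImJ and without arrays 2 or 3 of C57Bl/6J. The mean of the list overlapped between strains, at 5.67, 5.98 and 6.25 in 129S1/ImJ and 5.97, 5.28 and 4.93 in C57Bl/6J, where array 1 was highest.

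Among 9 markers of eosinophils, basophils and mast cells, whose median was 0.07 and -0.09 without both arrays that stood apart, Il6ra (1.58, with 0.09 in a further set) and Ms4a2 (1.10) were higher. Ms4a2, the beta chain of the IgE receptor, read 3.97, 4.04 and 3.41 in 129S1/ImJ and 2.54, 2.80 and 2.78 in C57Bl/6J (adjusted p = 0.0078). Fcer1g, the signalling chain that Fc receptors share, went the other way with 9.05, 8.67 and 8.88 in 129S1/ImJ and 10.27, 10.52 and 10.79 in C57Bl/6J (-1.66 ± 0.19, limma adjusted p = 6.2e-05). In the list of Slam family and Fc receptors 2 of 14 were higher (Fcgr4 and Cd244a) and 2 lower (Fcer1g and Cd84). Both lists stand beside 2.4% higher and 3.53% lower calls over all tested genes.

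Platelet and megakaryocyte markers were lower in 129S1/ImJ in 10 of 21 genes and higher in 0, while 3.53% of all tested genes were lower and 2.4% higher. This list is bright, and above a mean of log2 9, 103 of 837 probe sets were lower and 77 higher. Their median was -0.80, and 20 of the 21 differences were negative. In whole RNA 11 of the 21 were lower and 0 higher, with a median of -1.15, while the median over all tested genes there was 0.000471. F2rl2, a thrombin receptor of mouse platelets, was at the floor in 129S1/ImJ with 2.68, 2.92 and 2.91 and at 5.58, 6.05 and 5.83 in C57Bl/6J (-2.98 ± 0.20, limma adjusted p = 2.9e-07). A/J resembled 129S1/ImJ with 2.95, and the other strains had 5.84 to 7.15. Treml1, a receptor of platelet granules, read 7.53, 7.24 and 6.93 in 129S1/ImJ and 8.61, 9.25 and 9.27 in C57Bl/6J (-1.81 ± 0.28, adjusted p = 0.00093). Ppbp, a platelet chemokine precursor, had 11.77, 11.59 and 10.19 in 129S1/ImJ and 12.65, 12.81 and 12.85 in C57Bl/6J (-1.59 ± 0.27, adjusted p = 0.0024). All 3 genes separated the strains on every array, as did 1141 of all 1176 called probe sets.

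Smaller differences were those of Selp (-2.10), Gp6 (-1.44), Vwf (-1.22), Gp9 (-0.88), Clec1b (-0.84), Clu (-0.73) and Pf4 (-0.36). Rgs18 was the member with a positive difference, 0.50, which did not pass. The list averaged 9.67, 9.48 and 9.30 in 129S1/ImJ and 10.02, 10.66 and 10.64 in C57Bl/6J. C57Bl/6J array 1 was nearest to the 129S1/ImJ arrays, and without it 15 genes were lower with a median of -1.04, and without both arrays that stood apart 16, with -1.05. Over all tested probe sets the lower calls numbered 722 with all arrays, 1372 without that array and 1303 without both. Without array 2 or array 3 of C57Bl/6J 6 platelet genes were lower, and with the 6 arrays alone 1.

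**Figure D4:**
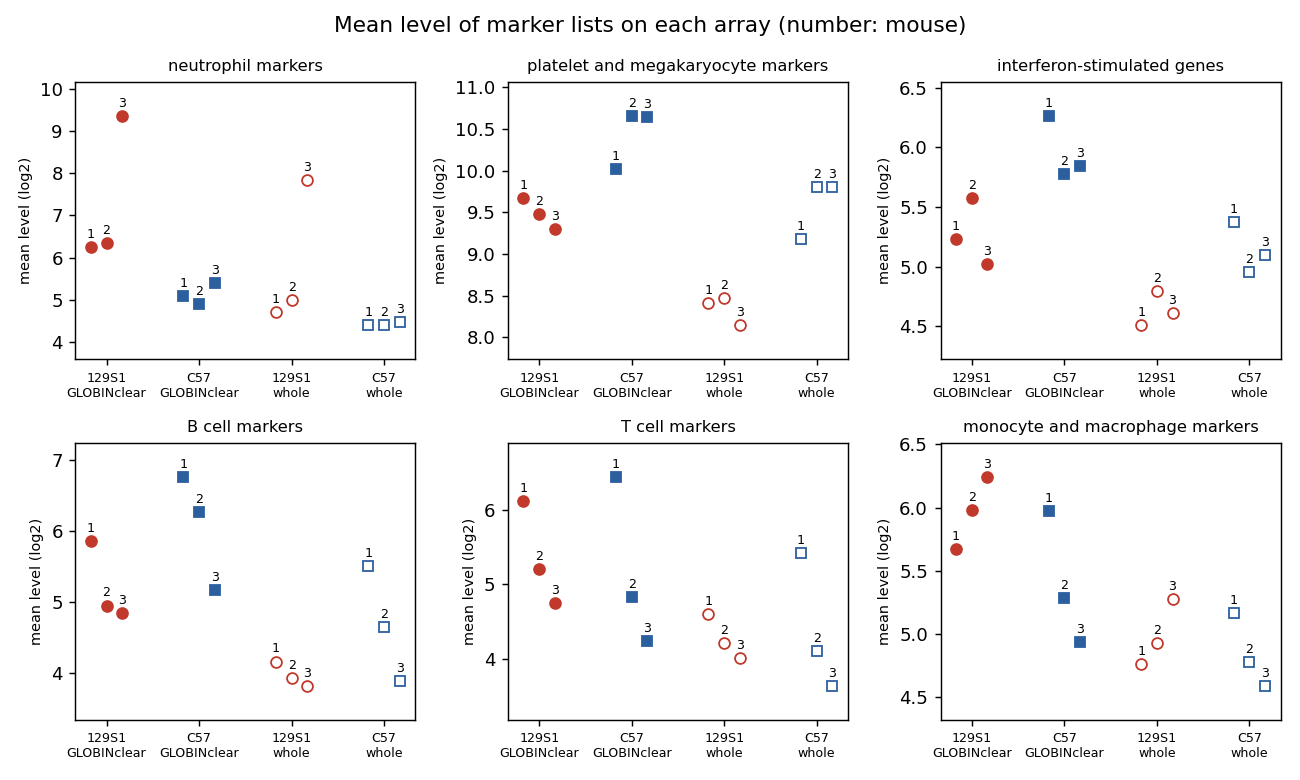
Mean level (log2) of 6 gene lists on each array, 129S1/ImJ as red circles and C57Bl/6J as blue squares, GLOBINclear RNA filled and whole RNA open, with the mouse number above each point. Array 3 of 129S1/ImJ is at 9.36 for neutrophil markers, and the platelet list lies lower on the 129S1/ImJ arrays in both preparations.

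No T or B cell marker was called by its brightest probe set. T cell markers had 0 of 21 called in limma, 2 at an unadjusted p under 0.05 and a median of 0.08. Il7r, a T cell marker, differed by 1.69 in its brightest set without passing (limma adjusted p = 0.14). A dimmer Il7r set was called higher (1.72, limma adjusted p = 0.0028). In whole RNA that dimmer set differed by 0.46 and did not pass (limma adjusted p = 0.11). B cell markers had 0 of 18 called in limma, 7 at an unadjusted p under 0.05 and a median of -0.92. Over all tested genes 2.4% were called higher and 3.53% lower. Of the 22518 tested probe sets 3444 had an unadjusted p under 0.05. Of the B cell markers 17 of 18 had a negative difference. Ms4a1, which encodes CD20, read 6.74, 5.73 and 5.30 in 129S1/ImJ and 8.43, 7.66 and 6.47 in C57Bl/6J (-1.60 ± 0.65, limma adjusted p = 0.22). The list averaged 5.86, 4.96 and 4.85 in 129S1/ImJ and 6.77, 6.27 and 5.17 in C57Bl/6J, with array 3 of C57Bl/6J within the range of the 129S1/ImJ arrays. Without C57Bl/6J array 1 the median was -0.54, and without both arrays that stood apart it was -0.32, with 0 genes called in limma. The T cell list moved with that array too, with a median of 0.98 and 1 gene called when it was left out. Without both arrays 4 T cell markers were higher, with a median of 1.32. The higher calls over all tested probe sets were 454 with all arrays, 786 without C57Bl/6J array 1 and 876 without both.

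Among natural killer genes Cd244a, a Slam family receptor, was higher, at 4.29, 4.50 and 5.62 in 129S1/ImJ against 3.22, 3.34 and 3.34 in C57Bl/6J (1.505 ± 0.32, limma adjusted p = 0.0097). However, a further set differed by 0.49 without passing. In whole RNA Cd244a differed by 0.11 and was not called (limma adjusted p = 0.97). The receptors of the natural killer gene complex, whose copy number differs among strains, gave 1 higher and 0 lower calls among 15. Over all tested genes the shares were 2.4% and 3.53%. Klra17, a receptor of the Ly49 family, had 4.43, 4.97 and 6.60 in 129S1/ImJ and 2.75, 2.82 and 2.82 in C57Bl/6J (2.54 ± 0.43, adjusted p = 0.0019). Cd244a and Klra17 were highest on array 3 of 129S1/ImJ, where the natural killer marker list averaged lowest. Probe sets of such families may read more than 1 member, and Klra8 and Klrc1 did not pass (-0.31 and -0.95).

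Red cell genes were called in both directions. The median was -0.05 for 18 genes of heme synthesis and iron, -0.28 for 22 genes of the membrane and skeleton, 0.31 for 22 of erythroid transcription and maturation and -0.15 for 19 of redox defence. In that order 1, 3, 1 and 2 genes were higher and 1, 2, 1 and 3 lower, while 2.4% of all tested genes were higher and 3.53% lower. The membrane median changed sign with the arrays used, at 0.15 without 129S1/ImJ array 1 and -0.67 without its array 2, and in whole RNA it was -0.53. With the 6 arrays alone 1 gene of these 4 lists passed, Glrx of the redox list. The beta globin set named Hbb-b2 read 7.55, 8.14 and 8.17 in 129S1/ImJ and 4.75, 6.17 and 6.05 in C57Bl/6J (2.30 ± 0.38, limma adjusted p = 0.0016), and 12.004, 11.45 and 11.47 against 8.78, 8.89 and 9.31 in whole RNA. The other 4 strains averaged 7.68 to 8.17, and C57Bl/6J alone was lower. The beta globin locus has a single and a diffuse haplotype among inbred strains, adult beta globin genes are near identical, and the kit removes their transcripts, so the level of this set is not that of 1 gene. A dim further set of Hbb-b2 differed by 0.12, and the other 4 globin genes tested did not pass.

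Of the erythroid factors Klf1, an activator of beta globin, was higher with 7.67, 8.52 and 5.66 in 129S1/ImJ and 4.13, 4.34 and 4.84 in C57Bl/6J (2.85 ± 0.53, limma adjusted p = 0.0043). Here too C57Bl/6J had the lowest mean of the 6 strains, 4.44, against 6.56 to 8.01 in the others. Nfe2, which acts in both erythroid cells and megakaryocytes, was lower (-1.01, adjusted p = 0.027). Its call was lost without array 1 or 2 of 129S1/ImJ and without array 2 or 3 of C57Bl/6J.

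Surface proteins differed as well. Cd59a, which shields red cells from complement, had 4.19, 4.99 and 5.35 in 129S1/ImJ and 7.02, 8.18 and 8.48 in C57Bl/6J (-3.05 ± 0.38, limma adjusted p = 0.00016), and the further set differed by -2.72. Cd47, the signal that keeps red cells from being engulfed, differed by -0.85 (adjusted p = 0.017). Ermap, a red cell membrane protein that carries a blood group in humans, read 5.40, 6.84 and 6.36 in 129S1/ImJ and 3.59, 3.77 and 4.47 in C57Bl/6J (2.26 ± 0.44, adjusted p = 0.0062). The glucose transporter gene Slc2a1, its neighbour on the chromosome among tested genes, differed by 1.54 (adjusted p = 0.049). Add2, an adducin of the membrane skeleton, differed by 1.79 in its brightest set while 3 dimmer sets differed by 0.05 to 0.14.

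Of the 19 redox genes 2 were higher and 3 lower. Gstm5, a glutathione transferase, was steady within strains at 11.14, 11.04 and 11.05 in 129S1/ImJ and 9.77, 9.59 and 10.05 in C57Bl/6J (1.27 ± 0.15, limma adjusted p = 7.4e-05). Gsto1, another transferase, had 4.03, 4.49 and 4.23 in 129S1/ImJ and 6.12, 6.28 and 7.15 in C57Bl/6J (-2.26 ± 0.36, adjusted p = 0.0012), with -3.11 in a further set. Blvrb, the biliverdin reductase of red cells, and Gpx4, which reduces lipid peroxides, differed by -1.39 and -0.67.

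Lists of general cell functions were read against 2.4% higher and 3.53% lower calls among all tested genes. Bright genes were called more often. Above a mean of log2 9, 77 of 837 probe sets were higher and 103 lower. The ribosomal list averaged 10.28 to 10.93 on the 6 GLOBINclear arrays and stands beside that share. Of 47 genes of oxidative phosphorylation 1 was higher and 3 lower, with a median of 0.22. Cox5a, a subunit of cytochrome c oxidase, read 9.95, 10.03 and 9.15 in 129S1/ImJ and 11.42, 11.69 and 12.04 in C57Bl/6J (-2.01 ± 0.25, limma adjusted p = 0.00012), and both further sets were lower (-1.81 and -2.60). Of 28 cytosolic ribosomal protein genes 2 were higher, Rps20 (1.14) and Rpl41 (0.57), with a median of 0.03. Further Rpl41 sets differed by 0.12, 0.13 and 0.32 and did not pass. A further Rps20 set was called higher (1.27), and another, near the floor, differed by -0.07. Of 32 immediate early and stress genes Nr4a1 was higher and Gadd45a lower (-1.58 ± 0.25, adjusted p = 0.0014). Cell cycle genes gave 2 higher calls of 17, Mki67 (2.13) and Birc5 (1.53), with a median of -0.05. Rrm2 did not pass in its brightest set (-2.16, limma adjusted p = 0.065). A dimmer Rrm2 set was called lower (-2.05, limma adjusted p = 0.0016), and another was not called (-1.54, limma adjusted p = 0.074). Without C57Bl/6J array 1 the higher and lower calls were 4 and 3 for oxidative phosphorylation, 6 and 0 for ribosomal proteins, and 5 and 1 for immediate early and stress genes. Without both arrays that stood apart the cell cycle median was 0.94 with 7 genes higher, and without C57Bl/6J array 1 it was 0.60 with 3 higher. Over all tested probe sets the higher and lower calls were 454 and 722 with all arrays. They were 786 and 1372 without C57Bl/6J array 1, and 876 and 1303 without both arrays.

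**Figure D5:**
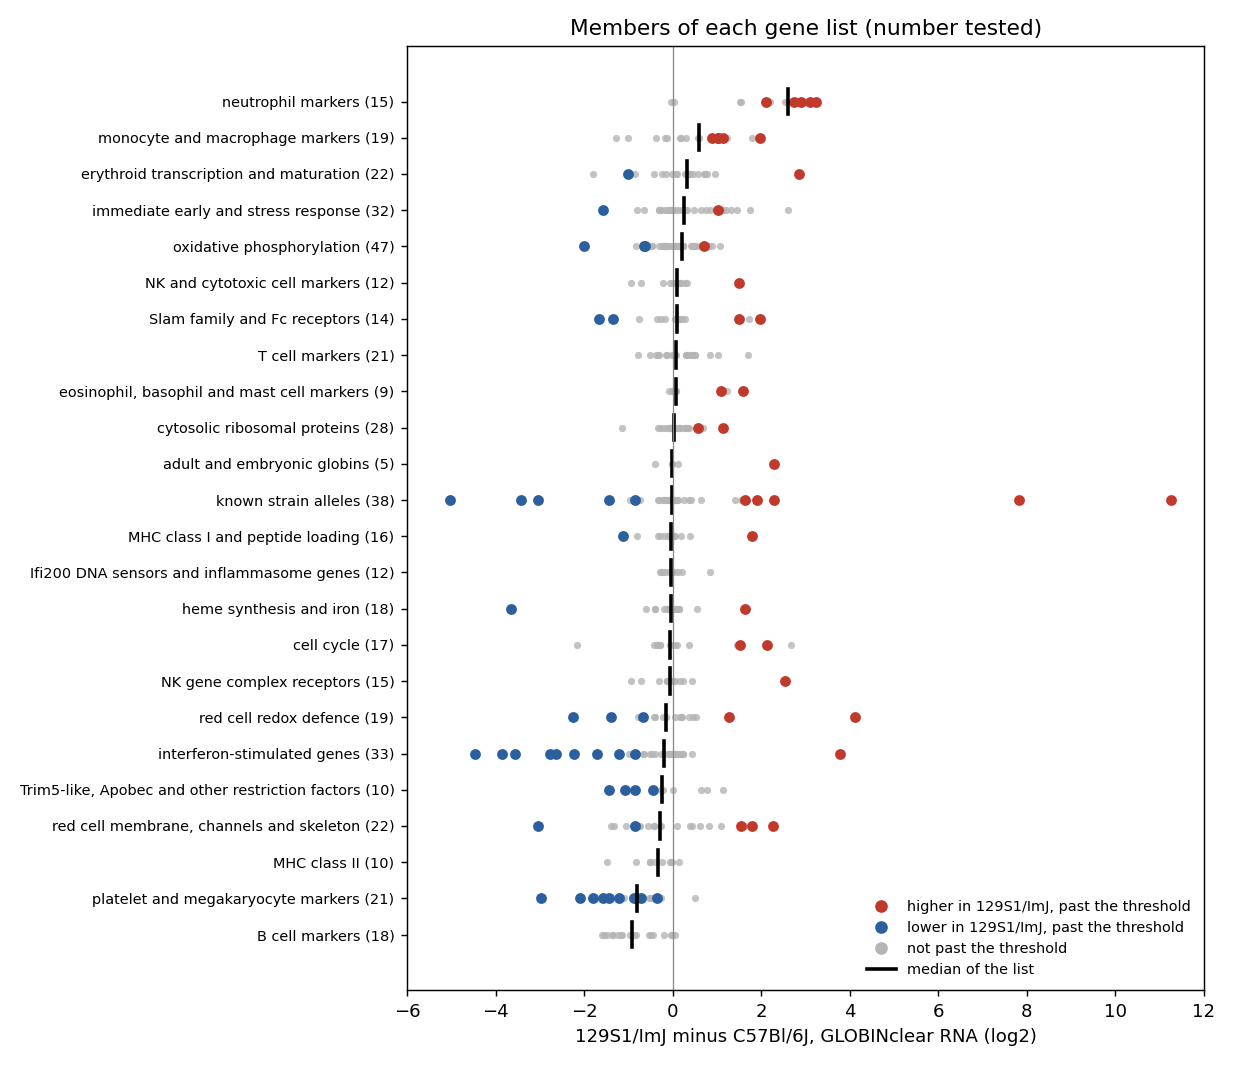
Difference between 129S1/ImJ and C57Bl/6J blood (log2, GLOBINclear RNA) of each tested member of 24 gene lists, ordered by the median (black bar), with called members in red (higher) or blue (lower) and the others in grey. The neutrophil list has the highest median, 2.60, and the platelet list has 10 lower and 0 higher calls.

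For 157 probe sets (0.697%) the strain difference itself differed between GLOBINclear and whole RNA in limma, fitted to each mouse's GLOBINclear value minus its whole RNA value. The change was positive in 73 sets (0.324%) and negative in 84 (0.373%). In genes these were 77 of 11353 (0.678%), 42 positive (0.37%) and 35 negative (0.308%). Sult4a1 differed between strains by 4.26 in GLOBINclear RNA and 1.41 in whole RNA, a change of 2.85 ± 0.24 (limma adjusted p = 2.3e-05). Cuedc1 had 5.58, 5.50 and 6.51 in 129S1/ImJ and 2.81, 2.97 and 3.31 in C57Bl/6J in GLOBINclear RNA, while in whole RNA the strains lay together between 2.85 and 3.21. A further Cuedc1 set differed by 0.19 in GLOBINclear RNA. Ooep, an oocyte protein gene, behaved alike in the other direction, with GLOBINclear levels of 2.67, 2.59 and 2.55 in 129S1/ImJ and 4.66, 5.91 and 6.16 in C57Bl/6J and whole RNA levels of 2.70 to 3.06. In these cases the whole RNA value of at least 1 strain was near the floor. No such set was called in opposite directions in the preparations, as counted above, and with the 6 mice of both strains alone 0 sets passed in limma, with 1534 at an unadjusted p under 0.05.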

How the data were processed

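Blood RNA of 18 mice was hybridized to Affymetrix arrays, as whole RNA and after GLOBINclear, which gives 36 arrays. The deposited values are log2 levels per probe set; the tools listed per the submitters' processing notes are affy, GCRMA and MAS5, without versions. Which of them made the values is not stated. The values were kept as deposited, with no further normalization. There were 0 value columns without a sample. No depth exists for arrays, and the number of mice limits the precision.

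Of 45101 probe sets, 64 were controls. A platform annotation named 1 gene for 34945, several for 932 and none for 9160, and 34741 single names matched RefSeq symbols. Sets with a mean over all 36 arrays above the median were tested (22518). limma 3.58.1 in R 4.3.3 fitted the 6 strain means over the 18 arrays of a preparation (lmFit, eBayes with an intensity trend), and strains were compared with Benjamini-Hochberg adjustment over all tested sets. The difference between preparations was fitted on each mouse's difference. Replicate numbers pair the preparations of a mouse in the labels, and in 17 of 18 mice the deviations correlated best under the mouse's own number (lowest correlation -0.08). The fit was tested on simulated data. Figures used matplotlib 3.10.9.

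Named were the 12 genes with the largest differences in each direction among called genes with no overlap between strains and the same sign in whole RNA, up to 3 genes of each list by the moderated statistic, called members of the allele list, and up to 6 genes for the preparations, with their further probe sets. Other members were named after their values were seen. Members and gene lists were chosen with earlier results of these data known. Alternatives covered the samples in the fit, scaling, filters, the trend, array weights, a replicate block, averaging of a mouse's arrays or a gene's sets, and leaving out arrays.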

Additional observations from a re-analysis of the deposited data

Results flagged for a closer look

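For 157 probe sets the strain difference in GLOBINclear RNA departed from that in whole RNA of the same mice, by limma's test of the change itself, and 22 of the named genes were among them. Values are the GLOBINclear difference minus the whole RNA difference, on the log2 scale. Genes higher in 129S1/ImJ with a larger difference in GLOBINclear RNA were Sult4a1 (2.85), Cuedc1 (2.75), Klra17 (2.12), Laptm4b (2.08), Fnip2 (1.95), Mmp8 (1.69), Npy (1.66), H2-Q10 (1.61), Fpr2 (1.47), BC018473 (1.32), Alad (1.27), Ms4a2 (1.09), Sirpb1a (1.00) and Treml4 (0.69). Genes lower in 129S1/ImJ with a larger difference in GLOBINclear RNA were Ooep (-2.76), Cyp2b10 (-2.38), Oasl2 (-2.32), Cd93 (-2.21), Dut (-1.40), Apobec3 (-1.12) and Trim30d (-0.62). Serinc3 went the other way, since its difference was -3.04 in GLOBINclear RNA and -4.16 in whole RNA (change 1.12). Fewer probe sets reached log2 5 on the whole RNA arrays, 2393 to 3122, than on the GLOBINclear arrays, 4205 to 5278, and the part of this in the changes was not tested.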

How the results depend on the processing

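The GLOBINclear count of 1176 probe sets was 139 with the 6 arrays alone, 780 to 2158 with single arrays left out, and 2179 without both arrays that stood apart, a setting chosen after seeing the data. The other settings gave 937 (no filter) to 1636 (array weights). The whole RNA count of 570 was 100 with the 6 arrays alone and 3078 with array weights, whose estimation stopped before convergence in some fits, and 401 to 577 with single arrays left out. Quantile normalization moved the share of higher calls to 41.3% in whole RNA, from 26.7%, and to 56.8% for the change between preparations, from 46.5%. That last count, 157, was 0 with the 6 arrays alone (limma, 1534 at an unadjusted p under 0.05), 26 at a mean of at least log2 5, 590 with array weights, 96 to 282 with single arrays left out and 276 without both arrays. The causes were not tested. Of 67 called named genes, 22 kept their call in every setting, and 45 lost it with the 6 arrays alone. Signs turned only in uncalled genes. Skap1 differed by 0.15 with all probe sets averaged, and Casp1 by 0.0699 with array weights and 0.10 without both arrays. Hbb-bh1 differed by -0.0607 with each mouse's arrays averaged, -0.0128 without both arrays and -0.0566 to 0.35 with single arrays left out, and H2-Oa by 0.42 and -1.002 to 0.00044 in these last 2 settings. Of the same-numbered arrays of the strains, those numbered 1 deviated together in GLOBINclear RNA and the others hardly did, so the numbers were not taken as pairs (GLOBINclear correlations 0.36, 0.05 and 0.05, whole RNA 0.07, -0.02 and -0.05). With the replicate number as a block the counts were 1163, 526 and 154. Counting by a gene's mean over its sets gave 688 genes, against 673. No natural killer complex gene reached a mean of log2 5, so that setting has no value for the list. Dim probe sets limit all of these results, since 12406 of the 22518 lay at or under a mean of log2 3.5.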

Other observations

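Probe sets with no gene name or several names held some of the widest differences. A set annotated to Gm16867 and Slc25a37 (Slc25a37 is a mitochondrial iron carrier) averaged 2.37 in 129S1/ImJ and 9.01 in C57Bl/6J, with a difference of -6.64, and -6.26 in whole RNA. An unnamed set averaged 2.99 in 129S1/ImJ and 9.02 in C57Bl/6J (-6.02), and another 9.15 in 129S1/ImJ and 4.19 in C57Bl/6J (4.96). A set shared by the kallikrein genes Klk1b9 and Klk1b22 averaged 6.40 in 129S1/ImJ and 2.65 in C57Bl/6J.

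Neighbouring genes were both called in 56 of 11308 pairs of consecutive tested genes (0.495%). In 35 of these the direction was the same, 9 higher and 26 lower in 129S1/ImJ, and in 21 it was opposite. Gsta2, a glutathione transferase, and Ooep differed by -2.36 and -2.97. Ermap and Slc2a1 were both higher (2.26 and 1.54), and Ache, the acetylcholinesterase of red cells and synapses, was lower together with Ufsp1 (-1.75 and -1.49). Hnrnpul1 and Cyp2b10 went opposite ways, with 2.16 and -2.15. Pik3cg, a phosphoinositide kinase of leukocytes, was higher (2.02) beside Ccdc71l, which was lower (-2.64). These pairs were named after their values were seen. Neighbours follow the RefSeq order of the reference strain with untested genes left out, so such genes may lie between them.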
